A study of Mus musculus with 3 samples.

Results

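The collagen chains are the genes whose symbols have the form Col, a type number, the letter a and a chain number. They were selected by that symbol pattern in the count tables of SB28, and 44 of 24421 gene lines carried it. SB28 is a mouse glioblastoma model line of C57BL/6 background, with brain given as its source. Its RNA was sequenced as 3 replicate libraries of 1 group, labelled replicates 1, 2 and 3. The labels name no treatment, control line, culture condition or passage, SB28 is a single line, and separate cultures are not stated for the replicates. P-values therefore measure only the spread between these libraries, which may be technical.

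A collagen molecule is a rope of 3 chains wound around each other, and each chain carries long stretches in which glycine recurs once in every triplet of residues. Fibrillar collagens form the cables of connective tissue, type IV forms the sheet of basement membranes, type VI forms beaded filaments, and the fibril-associated, transmembrane and multiplexin types attach to or link these. In the healthy brain collagen lies mainly in the vessel wall and the meninges. Chains of 1 type are usually assembled together inside the cell, where enzymes hydroxylate them and chaperones hold them, before they are trimmed and cross-linked outside.

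The repeat that defines the family can be read in the coding sequences, and all stretches shown carry it alike. What separates the fibrillar from the network-forming chains is the length of the unbroken run, given after them. Each line gives 90 bases from the start of the longest unbroken run, 5′ to 3′, from the GENCODE M21 transcripts, and capitals mark the GGN codons, which encode glycine.
Col1a1: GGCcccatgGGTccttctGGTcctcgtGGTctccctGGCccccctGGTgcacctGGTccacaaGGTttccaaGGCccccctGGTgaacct
Col3a1: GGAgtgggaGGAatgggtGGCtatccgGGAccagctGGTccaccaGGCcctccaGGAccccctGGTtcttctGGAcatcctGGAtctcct
Col4a1: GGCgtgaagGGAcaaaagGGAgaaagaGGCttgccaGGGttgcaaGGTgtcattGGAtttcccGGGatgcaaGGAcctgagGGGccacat
Col6a1: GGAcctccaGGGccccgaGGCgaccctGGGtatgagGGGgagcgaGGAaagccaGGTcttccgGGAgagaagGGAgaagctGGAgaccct

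In Col1a1 that run went on for 338 codon triplets without a break, and in Col3a1 for 344. Among the 11 fibrillar chains, 9 had a longest run of 337 to 344 triplets, while Col24a1 and Col27a1 had 216 and 217. In the 6 type IV chains the longest run was 39 to 66 triplets, and the repeat was broken into 23 to 27 runs of at least 3 triplets. Those runs still held 74.9% to 78.9% of the type IV codons, against 73.3% in Col1a1. The longest run was 87 triplets in Col6a1 and Col6a2 and 45 in Col6a3. All 44 chains had a run of at least 20 triplets, compared with 20 of 21854 other protein-coding genes, or 0.0915%.

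Replicates 1, 2 and 3 held 36019009, 28990128 and 32632858 counts in genes. Replicate 3 stood apart. Replicates 1 and 2 differed by little more than counting noise, with a mean chi-square of 2.23 per gene at 1 degree of freedom, while replicate 3 gave 78.1 against replicate 1 and 69.2 against replicate 2. Replicate 3 also had more reads outside annotated genes, 7.89% of its gene counts against 6.12% and 6.21%. The results on library differences below therefore rest on that library, and values without it are given. Of the markers listed for other cell types, 4 of 7 pericyte markers were detected, 2 of 7 for fibroblasts, 3 of 7 for endothelium, 2 of 6 for osteoblasts and 1 of 6 for chondrocytes. Their summed levels in replicates 1, 2 and 3 were 188, 188 and 156 CPM for pericytes, 165, 169 and 151 for fibroblasts, and 478, 471 and 346 for endothelium. They were 32.8, 32.6 and 10.4 CPM for astrocytes, 33.2, 29.98 and 21.6 for chondrocytes, 49.8, 48.9 and 45.4 for the oligodendrocyte lineage, 25.4, 23.9 and 19.2 for neurons and 5.77, 5.07 and 4.14 for microglia and macrophages. In the other direction, the sums were 70.8, 75.4 and 77.6 CPM for osteoblasts and 47.4, 46.7 and 65.9 for Schwann cells. For Schwann cells 3 of 5 markers were detected. The osteoblast sum was mostly Runx2 (61.0, 64.9 and 72.9 CPM). Dmp1 (8.33, 9.24 and 4.17) and Sp7 (1.39, 1.10 and 0.276) were lowest in replicate 3. Bglap and Alpl, at most 0.184 CPM, were highest there. By these sums, replicate 3 was the low library for 8 of the 10 marker lists and the high one for 2. Single members did not all follow their sum. Of the fibroblast markers, Pdpn (105.4, 107.9 and 108.2 CPM) was highest in replicate 3 and Pdgfra (56.5, 58.5 and 42.2) lowest. Aldoc (20.2, 20.4 and 1.65) held most of the astrocyte difference. Cd68 (5.16, 4.79 and 3.34) made up most of the microglia and macrophage sum, while Csf1r, at most 0.306 CPM, was highest in replicate 3. The endothelial sum was mostly Cdh5 (380, 371 and 303 CPM), while Kdr (1.11, 1.07 and 2.64) was highest in replicate 3. Sox9 (32.1, 29.1 and 20.8) made up most of the chondrocyte sum and Cspg4 (48.3, 47.8 and 44.5) most of the oligodendrocyte one. Cspg4 is also in the pericyte list, so the sums are not independent. Kcnj8 of the pericyte markers and Cldn5 of the endothelial markers had 0 counts. Of the astrocyte markers, 3 of 7 were detected and Gfap and Aqp4 had 0 counts, and both Olig1 and Olig2 had 0 counts. The part of any of these in the differences between libraries was not tested, and in bulk RNA fewer cells of a type and less RNA per cell cannot be told apart.

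Detection was set at 1 CPM (a count scaled to the total of all gene counts) in every library. By that measure 23 of the 44 chains were detected, 3 were split between libraries and 18 lay below in all of them. Detection covered 46.6% of all gene lines. The detected chains were 8 of 11 fibrillar, 6 of 6 type IV, 3 of 6 type VI, 2 of 9 fibril-associated, both multiplexins, 1 of 3 short-chain network chains, the single anchoring fibril chain and 0 of 4 transmembrane chains. All chains together held 0.910%, 0.894% and 0.693% of the counts in replicates 1, 2 and 3.

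Levels of different genes are compared as CPM per kilobase (kb) of union exon, the merged length of all annotated exons of a gene, and are given in the order of replicates 1, 2 and 3. The detected chains had a median of 17.5 CPM per kb, against 7.57 over the 11314 detected genes with a length.

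**Figure D1:**
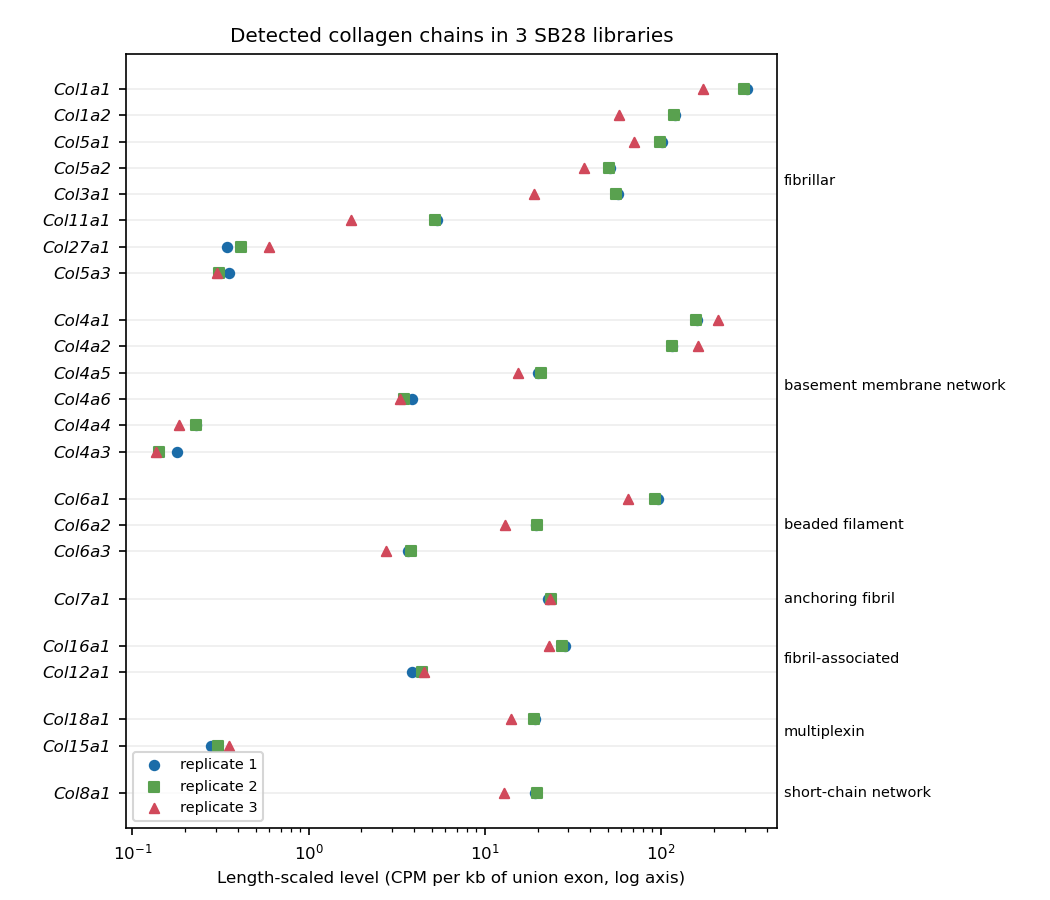
Length-scaled level (CPM per kb of union exon, log axis) of the 23 detected collagen chains, grouped by structural class, with 1 marker per replicate library. Col1a1 lies highest in replicates 1 and 2 at 312 and 298, and Col4a1 lies highest in replicate 3 at 211.

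The fibrillar class held the chain of highest mean level. Col1a1, the main chain of type I collagen, stood at 312, 298 and 175 CPM per kb, and replicate 3 was the low library. Its partner Col1a2 stood at 120, 119 and 57.7 CPM per kb and was again lowest in replicate 3. Col3a1, which forms type III collagen and mixes with type I in elastic tissues, stood at 57.3, 55.5 and 19.1 CPM per kb. For these 3 genes replicate 3 lay well outside the range of the other libraries. By length-scaled level Col1a1 ranked 115 among 11314 detected genes.

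Type V collagen starts and limits the growth of type I fibrils. Its chains Col5a1 (102, 99.8 and 71.04 CPM per kb) and Col5a2 (51.8, 51.3 and 36.6) were both abundant and both lowest in replicate 3. Another chain of that type, Col5a3, was near the detection limit at 2.42, 2.10 and 2.05 CPM, and its libraries were close together. Col11a1, a fibril-nucleating chain best known from cartilage, stood at 5.38, 5.23 and 1.75 CPM per kb, with replicate 3 low. Col27a1 was low at 4.47, 5.38 and 7.81 CPM and ran the other way, with replicate 3 highest.

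The other fibrillar chains lay below detection. Col2a1, the main chain of cartilage fibrils, had 15, 9 and 4 counts. Col11a2, the type XI partner of Col11a1, had 6, 4 and 16 counts, and Col24a1 had 3, 2 and 5.

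Type IV chains were the other large part of the family. Col4a1 stood at 160, 159 and 211 CPM per kb and Col4a2 at 117, 116 and 163. These 2 chains make up the ordinary basement membrane network found around vessels, and replicate 3 was the high library for both. Col4a5 (20.1, 20.9 and 15.5 CPM per kb) and Col4a6 (3.89, 3.49 and 3.32), chains of more restricted membranes, were lower and did not share that direction. Col4a4 (2.44, 2.45 and 1.96 CPM) and Col4a3 (1.78, 1.41 and 1.35 CPM), known from the kidney filter, were just above detection in all libraries.

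The type VI chains Col6a1, Col6a2 and Col6a3 are assembled into 1 molecule before the filament forms. Col6a1 stood at 97.2, 93.4 and 65.5 CPM per kb, Col6a2 at 19.6, 19.7 and 13.2, and Col6a3 at 3.67, 3.81 and 2.76. All 3 were lowest in replicate 3, and their levels did not overlap. Col6a4 was split (0.639, 1.0003 and 0.368 CPM), Col6a5 had 4, 1 and 3 counts and Col6a6 had 0 counts.

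The remaining classes were less abundant. Col7a1, the chain of anchoring fibrils beneath epithelia, stood at 23.1, 23.7 and 23.7 CPM per kb and was nearly level across libraries. Col16a1, a fibril-associated chain, stood at 28.5, 27.5 and 23.2, and Col12a1, a large fibril-associated chain, at 3.85, 4.43 and 4.52. The multiplexin Col18a1, which carries the endostatin fragment at its end, stood at 19.3, 19.2 and 14.1 CPM per kb, and its relative Col15a1 was low at 1.78, 1.93 and 2.24 CPM. Col8a1, a short-chain network collagen of vessel wall and eye, stood at 19.4, 19.9 and 12.9 CPM per kb. Replicate 3 was the low library for Col16a1, Col18a1 and Col8a1, and not for Col7a1, Col12a1 or Col15a1.

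Among the low chains, Col19a1 (0.694, 0.655 and 1.62 CPM) and the hemidesmosome chain Col17a1 (0.888, 1.07 and 0.429 CPM) were split between libraries. Col20a1 was the highest of the fibril-associated chains below detection, with 30, 18 and 30 counts, and Col23a1 the highest of the transmembrane ones, with 6, 12 and 6. Col8a2, the partner of Col8a1, had 7, 1 and 2 counts. Col28a1 led the 2 unclassed chains with 3, 0 and 1 counts. Named after their values were seen, Col6a6, Col9a1, Col10a1, Col13a1 and Col14a1 had 0 counts in every library, which allows up to 0.0833, 0.103 and 0.0919 CPM in replicates 1, 2 and 3, for counting error only. Col10a1 is a marker of hypertrophic cartilage, and Col9a1 is another cartilage chain.

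Most of the family's transcripts belonged to few chains. Of the chains' length-scaled counts, the fibrillar class held 55.7%, 55.2% and 39.5% in replicates 1, 2 and 3, and the type IV class 25.8%, 26.2% and 42.9%. The type VI class held 10.3%, 10.2% and 8.90%. The order of the 2 main classes was thus turned in replicate 3, and with union exon length type IV was the larger class there. Union exon length is 12426 bases for Col1a2 and 9816 for Col3a1, against 5348 and 5564 in the longest transcript. With the longest transcript as length, the fibrillar class held 60.7%, 60.3% and 44.1%, and type IV held 38.2% in replicate 3, so that the gap narrowed there but the order held. By single chain the order turned under both lengths. Col1a1 exceeded Col4a1 in replicates 1 and 2 and lay below it in replicate 3, at 194 against 238 CPM per kb with the longest transcript.

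**Figure D2:**
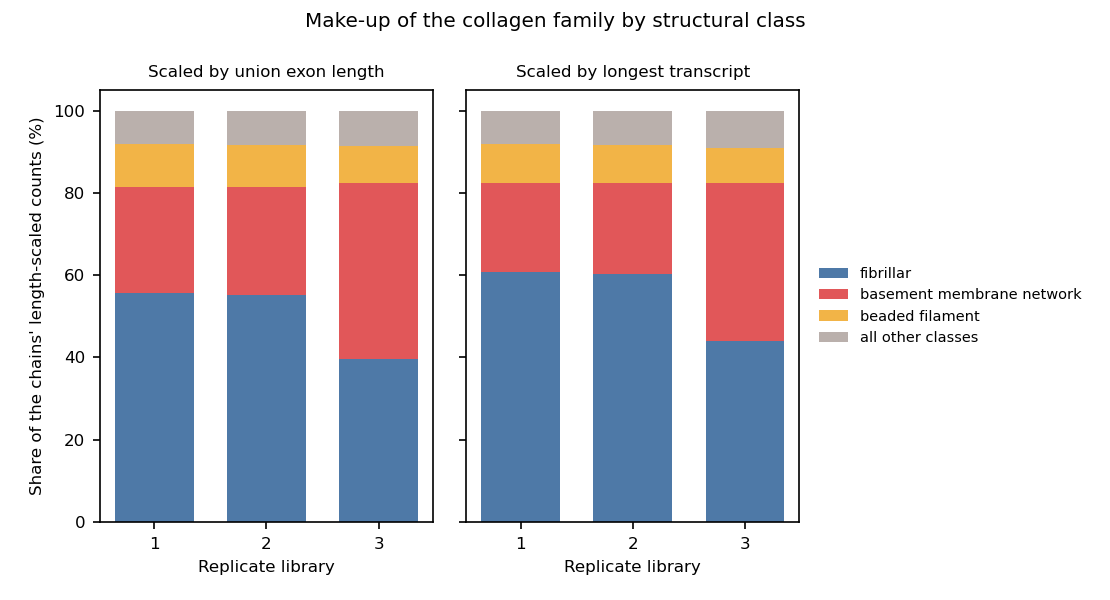
Share of the collagen chains' length-scaled counts (%) held by the fibrillar, basement membrane (type IV), beaded filament (type VI) and all other classes in each replicate library, with union exon length on the left and the longest transcript on the right. Type IV holds 42.9% in replicate 3 with union exon length, against 25.8% and 26.2% in the other 2 libraries.

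The difference of each chain between libraries was tested against counting noise with a chi-square test on TMM-scaled counts, with Benjamini-Hochberg adjustment over the 12737 genes whose mean count reached 10. Of the 44 chains, 28 reached that count and 21 of these varied, where 65.7% of all tested genes did. The 28 tested chains included 16 that varied and were lowest in replicate 3, against 31.5% of all tested genes. They also included 5 that varied and were highest there, against 33.1%. Of the 8369 genes that varied, 4007 were lowest and 4215 highest in replicate 3. Among the 23 detected chains 18 varied, each with an adjusted p of at most 0.00367 (chi-square), where 69.1% of all detected genes varied. Without replicate 3, only Col1a1, Col6a1 and Col12a1 still varied, where 2.01% of all genes tested between replicates 1 and 2 did.

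The sizes of these differences follow as the highest over the lowest TMM-scaled level. Col11a1 differed 3.06-fold, Col3a1 2.99-fold, Col1a2 2.07-fold, Col1a1 1.77-fold and Col8a1 1.53-fold, all lowest in replicate 3. Col27a1 differed 1.76-fold and was highest there. Type V and type VI chains moved less, at 1.43-fold for Col5a1, 1.41-fold for Col5a2, 1.48-fold for Col6a1, 1.49-fold for Col6a2 and 1.37-fold for Col6a3. Col4a1 and Col4a2 were 1.34-fold and 1.41-fold higher in replicate 3 than in replicate 2, their lowest library. Col4a5 (1.34-fold), Col18a1 (1.36-fold), Col16a1 (1.22-fold) and Col4a6 (1.17-fold) were lowest in replicate 3, and Col12a1 (1.18-fold) was highest there. Without replicate 1 the Col12a1 and Col4a6 calls were lost, at adjusted p = 0.537 and 0.408 in the chi-square test. Col7a1 (adjusted p = 0.129), Col4a3, Col4a4, Col5a3 and Col15a1 were detected but did not pass the test. Between replicates 1 and 2 the detected chains differed by a median of 1.03-fold and by at most 1.26-fold, in Col4a3.

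Of the split chains, all 3 passed the test on few reads. Col6a4 differed 2.70-fold with 23, 29 and 12 counts, Col17a1 2.47-fold with 32, 31 and 14, and Col19a1 2.50-fold with 25, 19 and 53. Col6a4 lost its call without replicate 2 (adjusted p = 0.164, chi-square).

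In 10 of the 28 tested chains the range was at least 1.5-fold, as it was in 22.9% of all tested genes. Over the 28 tested chains, 7 had such a range with replicate 3 lowest (12.9% of all tested genes) and 3 with it highest (8.93%). Of the 2913 genes with such a range, 1647 were lowest and 1137 highest in replicate 3. A range of at least 2-fold with replicate 3 lowest was seen in 5 chains, Col11a1, Col3a1, Col1a2, Col6a4 and Col17a1, and in 5.78% of all tested genes. Counting only chains with a mean of 100 reads or more, a 1.5-fold range was seen in 6 of 19, beside 14.8% of all such genes, and among detected chains in 6 of 23, beside 16.5% of detected genes. Without replicate 3 it was seen in 1 of 28, Col6a4, beside 2.82% of all genes tested. As log2 of the level in a library over the mean of the 3, the tested chains had a median of 0.12, 0.11 and −0.25 in replicates 1, 2 and 3, beside −0.0019, −0.0025 and −5.7e-05 over all tested genes. By class the median in replicate 3 was −0.46 for the fibrillar, −0.39 for the type VI and −0.13 for the type IV chains. The type IV chains did not move together. Col4a1 and Col4a2, which held most type IV reads, lay at 0.26 and 0.31, and the others from −0.28 (Col4a5) to −0.098 (Col4a6).

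**Figure D3:**
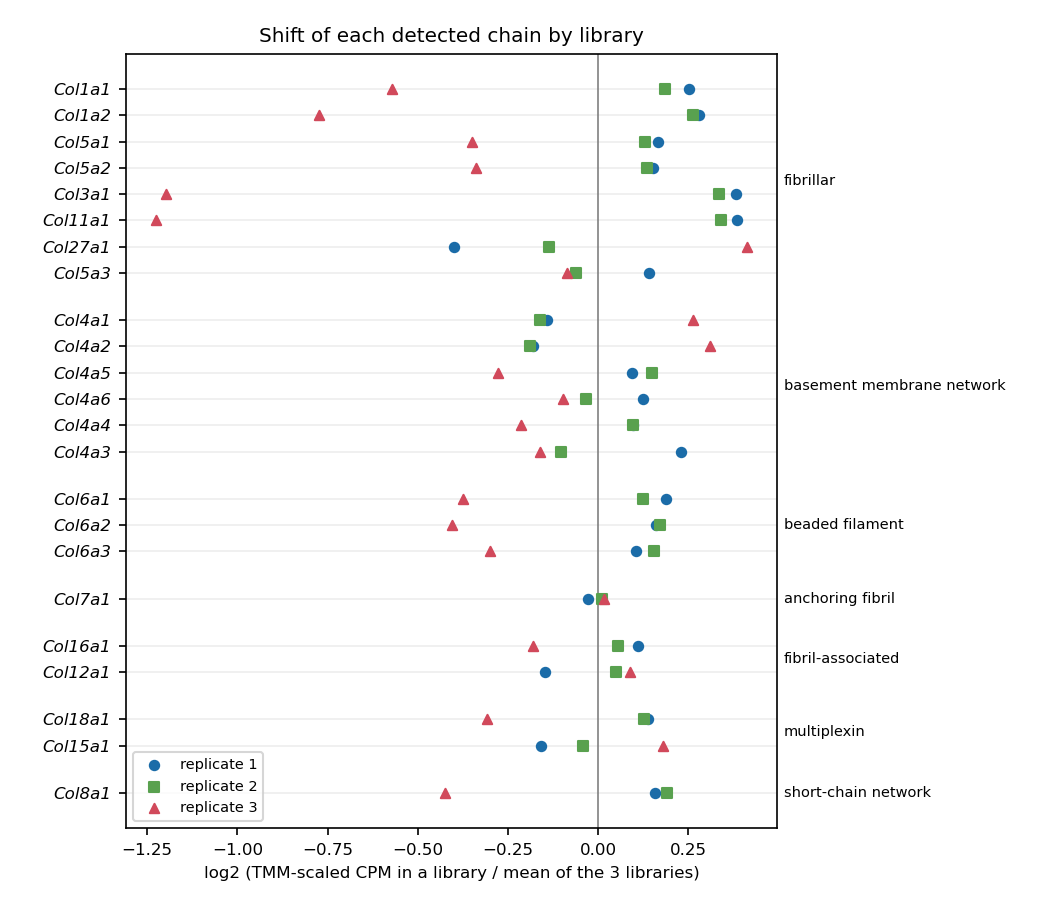
Shift of each of the 23 detected chains, as log2 of the TMM-scaled CPM in a library over the mean of the 3 libraries, with 1 marker per replicate. Replicate 3 lies at −1.23 for Col11a1 and −1.20 for Col3a1 and at 0.26 and 0.31 for Col4a1 and Col4a2, while replicates 1 and 2 lie close to each other.

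Pairs of chains, some of which share a molecule, were compared within each library, as the ratio of length-scaled levels on counts with 0.5 added. The replicate spread was taken as exceeded where no library crossed equality and the mean log2 ratio was above 2 SD. All 11 pairs with a ratio met this rule, and every exact two-sided sign-flip permutation p was 0.25, also after adjustment over the 11 pairs, the smallest that 3 libraries allow.

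The type I molecule usually joins a pair of Col1a1 chains to 1 Col1a2 chain. Col1a1 lay 2.59-fold, 2.50-fold and 3.03-fold above Col1a2, a mean log2 ratio of 1.43 ± 0.15 (SD, n = 3). This size rests on the length used: the longest transcript gave 1.28-fold, and uncorrected counts gave 1.42-fold. Col1a1 lay 5.44-fold, 5.37-fold and 9.19-fold above Col3a1 (mean 6.45-fold, and 4.05-fold with the longest transcript). The last ratio was widest in replicate 3, as Col3a1 was lower there by more than Col1a1.

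Ratios of chains that share a molecule of type V, IV or VI were closer between libraries, unlike that of type XI, given further on. Col5a1 lay 1.97-fold, 1.95-fold and 1.94-fold above Col5a2, a log2 ratio of 0.97 ± 0.01 (SD, n = 3), and 1.36-fold with the longest transcript. Col4a1 lay 1.38-fold, 1.36-fold and 1.30-fold above Col4a2 (0.43 ± 0.05), and Col6a1 lay 4.97-fold, 4.73-fold and 4.98-fold above Col6a2 (2.29 ± 0.04). The Col6a1 value was 3.08-fold with the longest transcript. These 3 ratios differed between libraries by at most 1.06-fold, although the chains themselves differed by 1.34-fold to 1.49-fold. Col6a1 over Col6a3 was 26.5, 24.5 and 23.7, and 9.10 as a mean without length correction.

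Pairs across molecules, among them Col4a1 and Col4a5 of type IV, varied more between libraries than pairs that share a molecule of type V, IV or VI. Col1a1 over Col5a1, the bulk chain over the nucleating chain, was 3.05, 2.99 and 2.46. These differed by 1.24-fold, beside 1.21-fold for Col1a1 over Col1a2 and 9.73-fold for Col11a1 over Col11a2, both within a molecule. Col4a1 over Col4a5 was 7.98, 7.57 and 13.7, and Col18a1 over Col15a1 was 68.5, 62.6 and 39.7. In both of the last pairs replicate 3 stood apart from the others.

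For 3 pairs the second chain was near or at 0. Col8a1 had 13313 counts in all against 10 for Col8a2, a pooled ratio per base of 763 (exact 95% interval 415 to 1591, counting error only). By library that ratio was 419, 1729 and 758, and without replicate 1, which held 7 of the 10 Col8a2 counts, the pooled ratio was 1496 (512 to 7256). Col11a1 had 5128 counts against 26 for Col11a2, a pooled ratio of 106 (72.5 to 163), and by library it was 205, 232 and 23.8. Without replicate 3 the pooled ratio was 237 (129 to 495). The low value of replicate 3 goes with fewer Col11a1 reads and 16 of the 26 Col11a2 reads. Col12a1 was at least 969-fold higher per base than Col14a1, against a floor of 3 counts over the group.

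**Figure D4:**
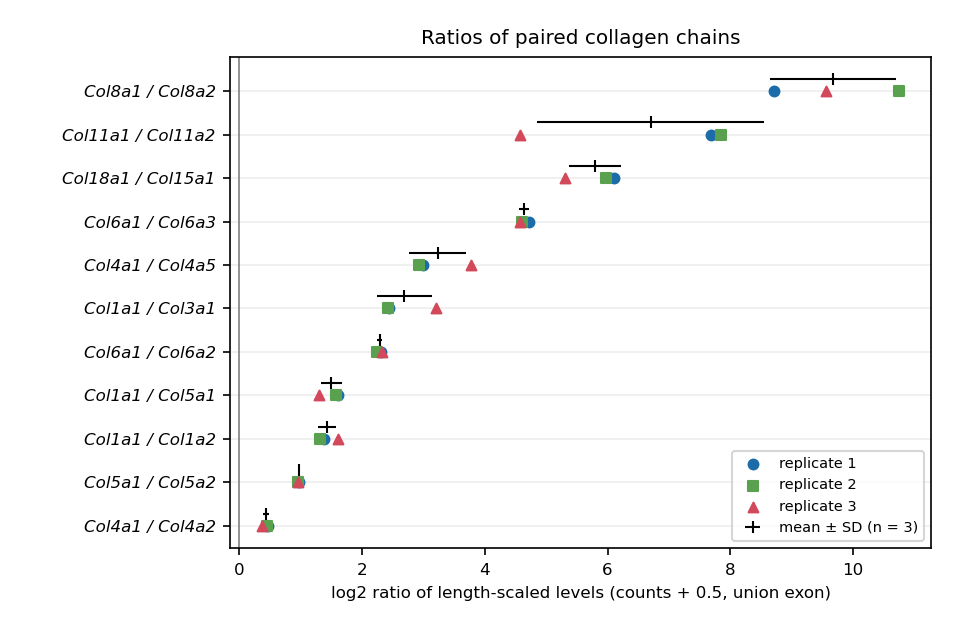
Log2 ratio of length-scaled levels for 11 pairs of collagen chains, with 1 marker per replicate library and the mean ± SD (n = 3) above them. The Col5a1 to Col5a2, Col4a1 to Col4a2 and Col6a1 to Col6a2 ratios nearly coincide over the libraries, while Col11a1 to Col11a2 runs from 4.57 to 7.86.

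Several chains lie next to each other in the genome (GRCm38, the assembly that mm10 names). Col4a1 (chr8:11198423-11312826, minus strand) and Col4a2 (chr8:11312805-11449287, plus strand) lie head to head, and their annotated first exons share 22 bases. They were also the only 2 detected type IV chains that were highest in replicate 3. Col4a4 and Col4a3 lie head to head on chromosome 1 with 71 bases between them and were both near 1 to 2 CPM. Col4a6 and Col4a5 lie head to head on chromosome X with 1308 bases between them. Col3a1 (chr1:45311538-45349706, plus strand) and Col5a2 (chr1:45374321-45503282, minus strand) lie tail to tail 24614 bases apart and differed between libraries by unequal amounts, 2.99-fold and 1.41-fold. Col6a2 and Col6a1 lie on 1 strand of chromosome 10, 85161 bases apart. Overlap with exons of other annotated genes covered at most 2.50% of the union exons of any detected chain except Col4a3, where it was 5.65%, on the opposite strand. As the strand setting is not stated, reads of antisense genes cannot be told apart there.

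Sequences before the start site were available for 35 of the 44 chains, as RefSeq windows on GRCm38.p6. They are shown for the 2 chains with the largest difference between libraries, chosen after their values were seen, and for the head-to-head type IV pairs, up to the nearest annotated exon and at most 250 bases. Capitals mark matches on either strand to the CCAAT box, the GC box GGGCGG, the TATA box TATAAA and the AP-1 site TGANTCA.
Col3a1, chr1:45311288-45311537, plus strand: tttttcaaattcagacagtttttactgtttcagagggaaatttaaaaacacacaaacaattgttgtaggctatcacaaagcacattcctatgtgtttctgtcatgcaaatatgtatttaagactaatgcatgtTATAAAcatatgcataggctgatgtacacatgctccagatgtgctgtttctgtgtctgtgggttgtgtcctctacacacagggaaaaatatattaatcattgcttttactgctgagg
Col11a1, chr3:114030290-114030539, plus strand: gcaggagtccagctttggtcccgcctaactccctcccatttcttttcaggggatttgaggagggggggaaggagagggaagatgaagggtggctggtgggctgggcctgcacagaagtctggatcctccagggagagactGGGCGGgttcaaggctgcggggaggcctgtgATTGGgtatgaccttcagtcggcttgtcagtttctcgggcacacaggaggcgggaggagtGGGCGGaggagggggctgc
Col4a4, chr1:82586850-82586920, minus strand, the whole interval to Col4a3: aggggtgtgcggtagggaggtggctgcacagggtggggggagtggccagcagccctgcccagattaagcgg
Col4a6, chrX:141474077-141474326, minus strand: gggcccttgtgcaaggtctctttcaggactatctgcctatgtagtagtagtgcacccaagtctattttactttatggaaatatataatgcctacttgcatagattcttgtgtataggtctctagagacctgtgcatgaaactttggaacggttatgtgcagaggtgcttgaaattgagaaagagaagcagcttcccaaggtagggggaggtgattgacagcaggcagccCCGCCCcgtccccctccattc

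The windows of Col3a1 and Col11a1 had no searched motif in common. Col3a1 held 1 TATAAA, 117 bases before the start, and Col11a1 held 1 CCAAT (as ATTGG) and 2 GGGCGG. The Col4a4 interval held none of the 4, and Col4a6 held 1 GGGCGG (as CCGCCC) 21 bases before the start. Over the 38 windows of all chains with one, GGGCGG occurred in 57.9%, against 32.7% of 32851 windows of all genes. CCAAT occurred in 34.2% against 33.8%, TATAAA in 13.2% against 12.4% and TGANTCA in 2.63% against 6.75%. Windows of Col1a2, Col4a1, Col4a2 and Col4a5 meet annotated exons directly at the start and are not printed, and Col1a1 had no entry.

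The enzymes and partners that collagen needs were described through a list of 80 genes in 5 roles. Detection was reached by 58, while 3 were split and 19 stayed below. Of 65 tested, 57 varied between libraries (65.7% of all tested genes did). Over the same 65, 45 varied with replicate 3 lowest (31.5%) and 11 varied with it highest (33.1%). Direction counts by role are likewise to be read over the tested genes of that role. The 3 shares of all tested genes, and the 46.6% of gene lines detected, are also the background of the counts by role that follow. The medians of their shifts were 0.09, 0.07 and −0.14 in replicates 1, 2 and 3. Without replicate 3 the number that varied was 5, beside 2.01% of all genes. The genes named are the 4 of highest mean CPM in each role, and since CPM is not scaled to length, it sets no order of level between them.

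Folding and modification genes were detected in 21 of 22 cases, and 17 of 21 tested varied, 14 of them lowest and 2 highest in replicate 3. The genes with most reads were Sparc (3248, 3144 and 2174 CPM), which binds collagen on its way out of the cell, P4hb (973, 972 and 839), a subunit of prolyl hydroxylase, the collagen chaperone Serpinh1 (382, 371 and 327) and the prolyl isomerase Fkbp10 (249, 239 and 246). Among these Sparc was the one that differed most, 1.49-fold, while Fkbp10 differed 1.04-fold. Colgalt2, a collagen galactosyltransferase, had 1 count in all. Chosen after their values were seen, the lysyl hydroxylase Plod2 (204, 202 and 102 CPM), the prolyl hydroxylase subunit P4ha1 (173, 181 and 84.2) and the isomerase Fkbp14 (37.5, 35.8 and 12.6) were 1.98-fold, 2.13-fold and 2.96-fold lower in replicate 3 than in their highest library.

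Of 16 processing and cross-linking genes 11 were detected, and all 12 tested varied, 8 of them lowest and 4 highest in replicate 3, and the last share was that of all tested genes. Pcolce (487, 478 and 510 CPM), an enhancer of propeptide cleavage, and Bmp1 (301, 295 and 268), the C-propeptide protease, were nearly level. The lysyl oxidase Lox, which starts cross-linking, stood at 233, 234 and 110 CPM and differed 2.11-fold, while its relative Loxl3 stood at 175, 170 and 153. Loxl2 (204, 199 and 77.2), chosen after its values were seen, differed 2.63-fold. Mep1a, Tll2, Adamts3 and Mep1b lay below 1 CPM in all libraries, the last 2 at 0 counts.

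**Figure D5:**
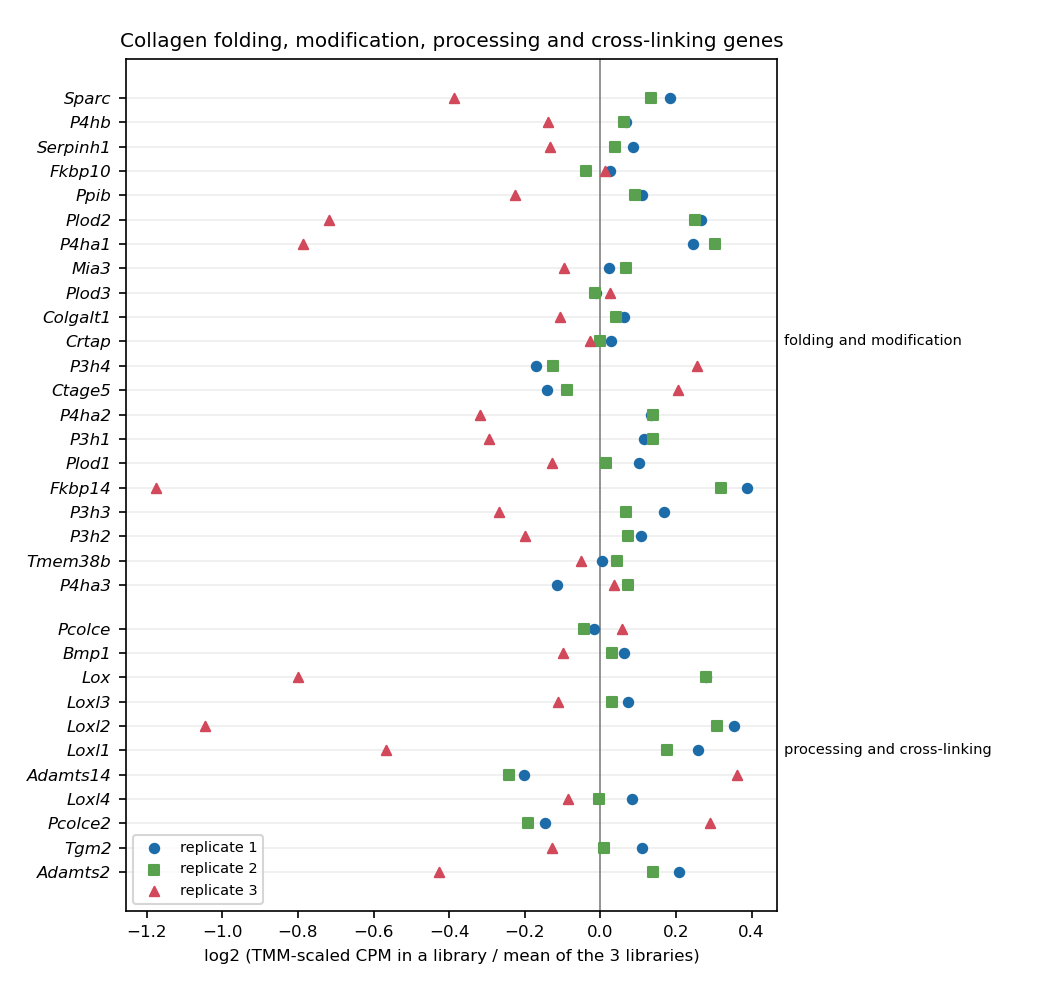
Shift of the 32 detected folding, modification, processing and cross-linking genes, as log2 of the TMM-scaled CPM in a library over the mean of the 3 libraries, with 1 marker per replicate. Replicate 3 lies far to the left for Fkbp14, Loxl2, Lox, P4ha1 and Plod2 and to the right for Adamts14, Pcolce2, P3h4 and Ctage5, the genes outside the naming rule being picked after their values were seen.

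Of 12 receptor genes 9 were detected, and 8 of 10 tested varied, all lowest in replicate 3. Those with most reads were Itgb1 (2617, 2636 and 1987 CPM), the shared beta subunit of collagen-binding integrins, the collagen-activated kinase Ddr2 (471, 483 and 400.0), the uptake receptor Mrc2 (399, 395 and 344) and the kinase Ddr1 (149, 143 and 132). All 4 were lowest in replicate 3 and passed the test, with ranges of 1.12-fold to 1.32-fold. Itga11, the integrin alpha subunit best known from fibroblasts, and the blood-cell receptors Gp6 and Lair1 lay below 1 CPM.

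Of 13 turnover genes 8 were detected, and 7 of 9 tested varied, 6 of them lowest and 1 highest in replicate 3. The cathepsins Ctsb (913, 908 and 810 CPM) and Ctsl (507, 502 and 497) and the metalloproteinase inhibitors Timp1 (867, 878 and 577) and Timp2 (803, 789 and 655) had most reads. Timp1 differed 1.51-fold, and Ctsl did not pass the test (adjusted p = 0.395, chi-square). The collagenase genes Mmp13, Mmp8 and Mmp1a, the gelatinase Mmp9 and the protease Fap lay below 1 CPM in all libraries. Other proteases of the list were detected, named after their values were seen. They were Mmp14 (240, 236 and 250 CPM), Mmp2 (84.0, 82.3 and 52.4) and Ctsk (8.55, 8.66 and 8.98).

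Of 17 fibril partners 9 were detected, and all 13 tested varied, 9 of them lowest and 4 highest in replicate 3, and the last share was near that of all tested genes. Fibronectin, Fn1, stood at 2837, 2896 and 2099 CPM and the small proteoglycan Bgn at 757, 731 and 411, both lowest in replicate 3. The basement membrane proteins Hspg2 (775, 891 and 947 CPM) and Nid1 (651, 662 and 824) were highest there, as Col4a1 and Col4a2 were. For Hspg2, however, replicate 1 stood further from the others than replicate 3 did. The other type IV chains were lowest in replicate 3, Col4a3 and Col4a4 without passing the test.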

How the data were processed

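RNA of SB28 was measured by RNA-seq in 3 libraries of 1 group, made from 1 µg of total RNA per the labels. For each library the authors deposited unnormalized read counts by gene symbol. Bowtie2 2.2.4, HTSeq and mm10 are listed, without role or option, per the submitters' processing notes; the strand setting is not given in the sources used here. The 5 summary lines of unassigned reads were left out. Reads marked as placed at more than 1 position came to 10.4% to 11.6% of the gene counts and reads marked ambiguous to 1.22% to 1.24%.

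Computed here were CPM over gene counts, CPM per kb of union exon from GENCODE M21 (all 44 chains matched by symbol), TMM factors (edgeR 4.0.16 under R 4.3.3), a chi-square test of 3 counts with 2 degrees of freedom (mean count of at least 10, adjusted p under 0.05) and within-library ratios. With 1 group, no contrast for a count model exists. Alternatives were DESeq2 1.42.0 size factors, total counts, other filters and lengths, a pseudocount of 5 and leaving out each library. On simulated counts for this test, with 12744 genes, 50% of genes changed 1.2-fold in 1 library, 90% changed 1.5-fold and 98% changed 2-fold were called, and 0% of 12752 genes under counting noise alone. Scripts ran on Python 3.11.15 with scipy 1.17.1.

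Members and lists were chosen with earlier results of these data known. Named are all chains that were detected, split or in a fixed pair, the highest undetected chain of each class, undetected partners of detected chains, the 4 pathway genes of highest mean CPM in each role and a role's undetected genes where fewer than 6; other names are marked. Coding DNA is shown where the rule asked for protein, as no protein table was used here.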

Additional observations from a re-analysis of the deposited data

How the results depend on the processing

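The number of detected chains (23) and of detected pathway genes (58) moved by less than 1.5 times at 0.5 and 5 CPM and without any library. All 11 pair ratios kept their direction and their call under all 77 alternatives run. Replicate 3 decided the differences between libraries: without it 3 chains and 5 pathway genes varied, against 21 and 57, and the numbers without 1 library ran from 3 to 21 and from 5 to 56. The number of chains with a range of at least 1.5-fold was 10. It was 18 without a filter on low counts, 6 with a mean count of at least 100 and 6 at 2-fold, and from 1 to 9 without 1 library. The chains held 0.832% of counts on average and 0.408% of length-scaled counts. DESeq2 size factors, total counts and, chosen after seeing the data, summing replicates 1 and 2 as 1 library changed no call among the 28 chains tested. Chains under about 10 counts per library were too shallow to compare, and ratios between genes of 1 sample depend on the annotated length. No paired analysis was possible because there is only 1 group.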
